A study of Mus musculus with 4 samples.

Results

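The lung library labelled 18 M was compared with the library labelled NB, cell type by cell type, for genes of tissue growth and of cell maturity. Both libraries held single cells from whole lungs of wild-type C57BL/6 mice that the labels call male, 10 days old (NB) and 18 months old (18 M). The study has 4 such libraries, 1 per age, and the libraries from 2 months (2 M) and 10 months (10 M) are given beside them only to show where the 18 M library lay. The lungs were digested with collagenase D and DNase1, dead cells were removed, and droplet 3′ libraries (10x, v2 chemistry) were sequenced. No treatment or engineered allele was used, and the number of mice behind a library was not given. Cells with over 200 and under 5000 genes, at most 25000 UMIs (unique molecular identifiers, each standing for 1 captured transcript) and under 8% mitochondrial UMIs were kept. These were 8377 of 11297 barcodes for 18 M and 6377 of 7366 for NB, 14754 of the 28153 cells kept in the series. Each cell was placed in 1 of 9 classes by its highest marker among Cd3e (T cells), Cd79a (B cells), Ncr1 (natural killer cells), Csf3r (neutrophils), Plet1 (alveolar macrophages), Csf1r (other myeloid cells), Dcn (pulmonary fibroblasts, pFBs), Cdh5 (endothelial cells) and Lamp3 (alveolar type II cells), and had to carry at least 2 supporting genes of its class. This left 10407 cells, 5486 in 18 M and 4921 in NB, and UMIs were summed by class and given per 1000000 UMIs of the class (CPM).

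The mouse lung is born before its alveoli are complete, and in the first weeks fibroblasts lay down elastin and collagen as the airspaces divide. Imprinted growth genes such as Igf2 and H19 are active in fetal tissue and are largely silenced soon after birth. Precursor B cells, recent thymic emigrants and dividing macrophages are features of early life, whereas memory T cells and plasma cells go with an immune system that has met antigen. MHC class II molecules present antigen to helper T cells.

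There was 1 library on each side, so no test was possible, and age, animal, library and an exchange of labels cannot be told apart. All differences are descriptions of these libraries. The 95% intervals in brackets cover counting error only, and a ratio is that of 18 M to NB unless said otherwise. Ratios of 18 M to 2 M and to 10 M share the 18 M library with it.

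The sex label of 18 M was not matched by its RNA. Xist, the RNA that coats the inactive X chromosome of females, was at 577.7 CPM (570.9 to 584.5) over all cells of 18 M, with 0.176 CPM for NB, 0.243 for 2 M and 0.526 for 10 M. Of the 18 M cells, 32.0% (31.0 to 33.0) held Xist and no Y-linked UMI, 39.8% held Y-linked UMIs and no Xist, and 4.37% held both. In NB, 71.6% held Y-linked UMIs alone and 0.0314% Xist alone. Every ratio of 18 M to NB therefore also compares libraries that differ in these shares. Results that shifted in cells with Y-linked UMIs and no Xist are given at the end. Median depth was alike, 4308 UMIs and 1675 genes a cell in 18 M and 4187 UMIs and 1592 genes in NB. The libraries shared 28 cell barcodes, 16 of them kept in both, and the other pairs of libraries shared 17 to 27. The defining markers were at similar levels within their classes, for example Dcn in pFBs at 5514 CPM in 18 M and 5371 in NB, and Cd79a in B cells at 1390 and 1494. Csf1r stood apart, with 526 CPM in 18 M and 296 in NB. Cells with more than 1 of the 9 markers were more frequent in 18 M in most classes. Among them were pFBs (38.2% against 17.6%) and B cells (19.96% against 8.401%). The same held for T cells, natural killer cells, neutrophils, Csf1r myeloid cells and endothelial cells. Such cells were less frequent in 18 M among alveolar macrophages (52.8% against 64.1%) and alveolar type II cells (32.01% against 34.29%).

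The cell classes took different shares of the libraries. Alveolar type II cells, which make surfactant, were 6.30% (5.79 to 6.84) of the 18 M cells, 528 cells, and 0.549% (0.383 to 0.762) of the NB cells, 35 cells. In 2 M and 10 M they were 0.704% and 1.22%. Alveolar macrophages, which clear surfactant and particles from the airspace, were 7.31% (6.76 to 7.88) and 2.89% (2.49 to 3.33). T cells were fewer in 18 M, 11.9% (11.2 to 12.6) against 21.3% (20.3 to 22.3), as were B cells, 32.1% against 40.3%, and natural killer cells, 0.215% (18 cells) against 0.659% (42 cells). Fibroblasts numbered 131 in each library, 1.56% and 2.05%. The share of kept cells that received a class was 65.5% in 18 M and 77.2% in NB, and digestion decides which cells of a solid tissue are recovered. Whether the lungs held these shares was not tested.

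**Figure D1:**
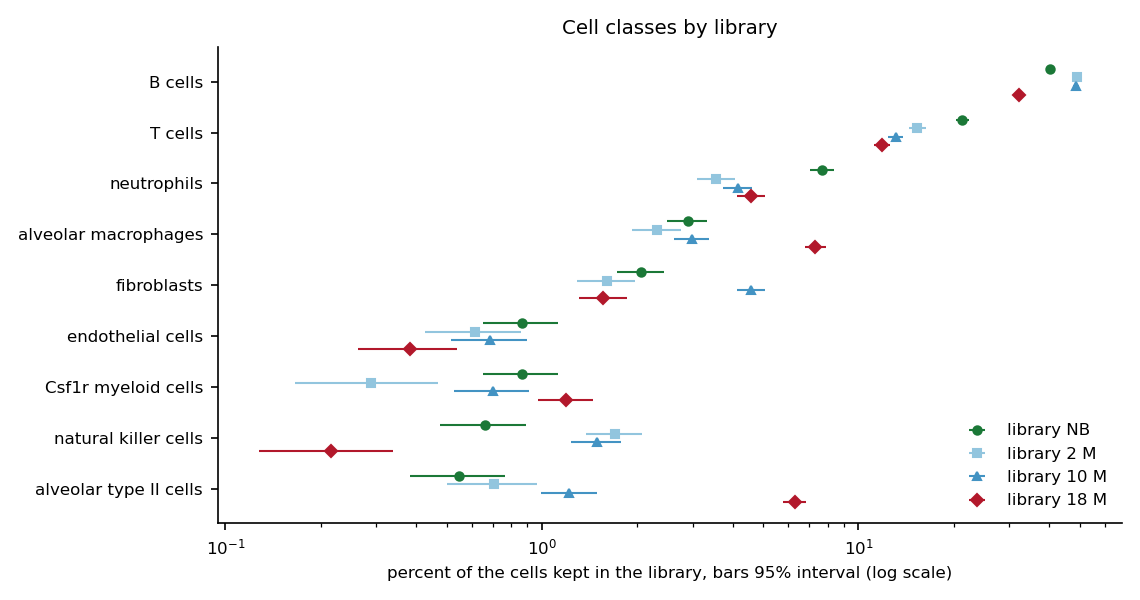
Share of the kept cells of each library (percent, log scale) in the 9 classes, 1 point per library with its exact 95% binomial interval. Alveolar type II cells at 6.30% and alveolar macrophages at 7.31% set the 18 M library above the other 3, and natural killer cells at 0.215% below them.

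Lists of genes that mark growth, precursor stages or mature function were then followed in their classes. A gene counted as measured with at least 50 UMIs over both libraries in the class, and as higher or lower when its ratio passed 2-fold after 0.5 UMIs were added to each count. A gene could be measured through the library in which it was high, which bears on the list medians, and examples are given below. Of the 20 pairs of a list and a class in the plot of the lists, the highest in 18 M were the matrix-building genes of pFBs (median log2 ratio 3.70, with medians of the members' interval ends at 3.29 and 3.83), the B cell precursor genes of B cells (3.64, 3.32 to 3.94) and the cell cycle genes of alveolar macrophages (2.75, 1.45 to 4.03). Lowest of the same 20 were MHC class II in alveolar macrophages (-3.02, -3.15 to -2.90), MHC class II in Csf1r myeloid cells (-2.44, -2.62 to -2.32), the mature natural killer cell genes (-2.34, -3.44 to -1.24) and the adult fibroblast genes (-2.32, -2.59 to -2.06). The median over all measured genes, the level against which a list is read, was 0.35 in neutrophils, 0.25 in alveolar type II cells, 0.17 in T cells, 0.16 in B cells and 0.11 in Csf1r myeloid cells, and within 0.1 of 0 in the other 4 classes.

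**Figure D2:**
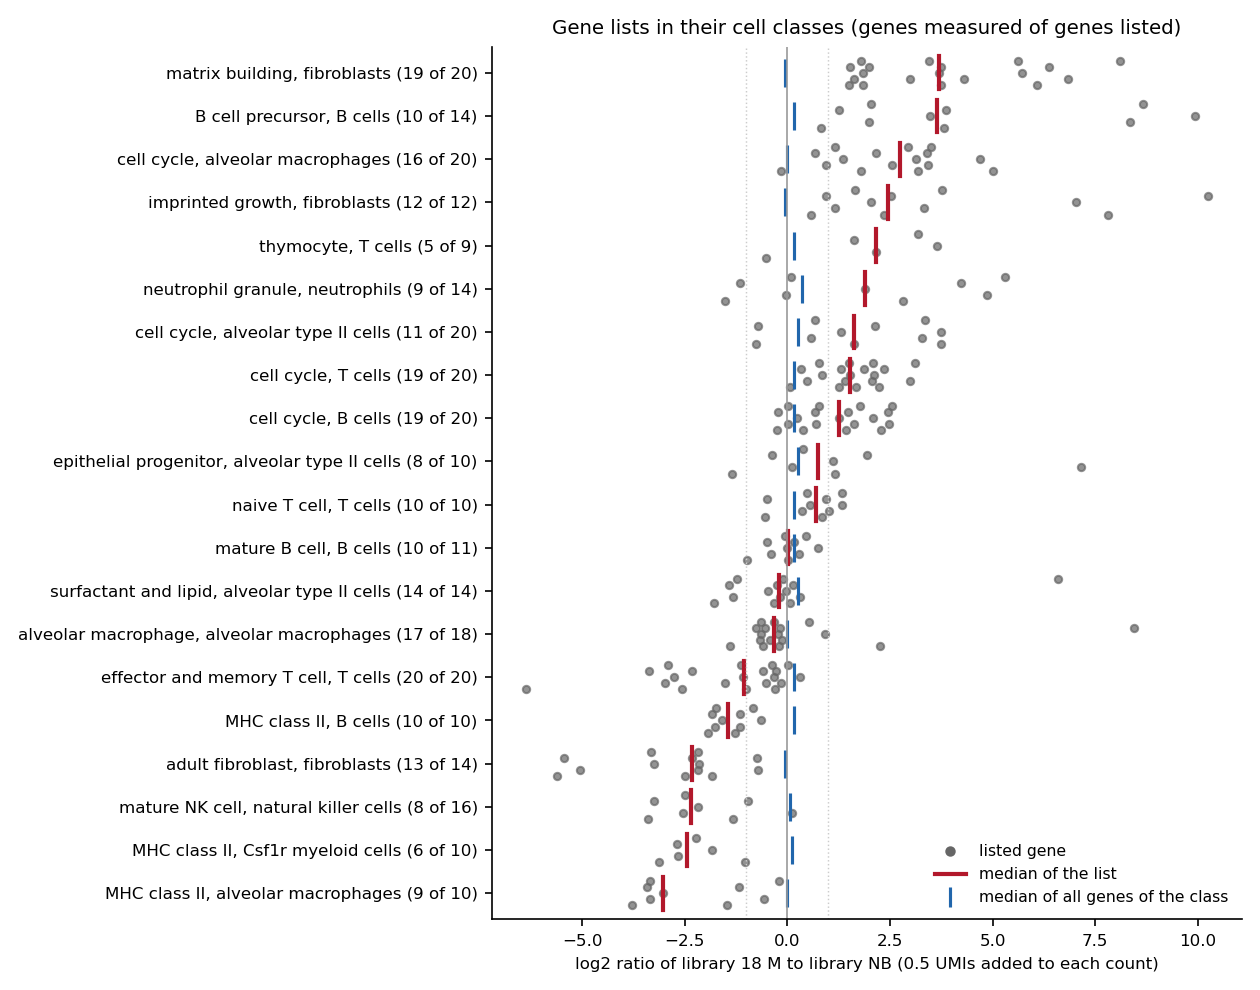
Log2 ratio of library 18 M to library NB for every measured gene of 20 pairs of a list and a class (points), with the list's median (long bar) and the median of all measured genes of the class (short bar); dotted lines mark 2-fold. Matrix-building and B cell precursor genes lie to the right, with medians of 3.70 and 3.64, and MHC class II genes of alveolar macrophages to the left, with a median of -3.02.

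In pFBs, all 19 of the matrix-building genes that were measured, of 20 listed, were at least 2-fold higher in 18 M, where 6.63% of all 5720 measured genes were. Together they held 111990 CPM in 18 M and 5856 CPM in NB. Col1a1 and Col3a1 encode the fibrillar collagens of types I and III. Col1a1 was at 22482 CPM (22237 to 22728) in 18 M and 454 (413 to 497) in NB, 49.5-fold (45.2 to 54.4) higher, with 3696 in 2 M and 1551 in 10 M. Col3a1 stood at 25360 CPM and 484 CPM, a ratio of 52.4 (47.9 to 57.4), with 3442 in 2 M and 1625 in 10 M. For both collagens 18 M was the highest library and NB the lowest. Eln encodes elastin, the elastic core protein of alveolar septa. It reached 12813 CPM in 18 M and 187 in NB, 68.5-fold (59.4 to 79.4) higher, with 2087 CPM in 2 M and 943 in 10 M. Sparc, a collagen-binding matrix protein, was 13.4-fold higher, at 15797 and 1179 CPM.

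The widest gaps among the matrix genes were in proteins of growing or healing matrix. Postn, periostin, was at 1219 CPM (1162 to 1277) in 18 M, in 69 of 131 cells, and at 3.92 CPM (1.07 to 10.0) in NB, in 2 cells, a ratio of 311 (121 to 1142). It was at 0 in 2 M and 9.76 CPM in 10 M. Cthrc1, a secreted protein of collagen-producing fibroblasts, was at 122 CPM in 18 M and at most 3.46 CPM in the other libraries. Fbn2, fibrillin-2 of the early microfibril, had 80 UMIs in 25 cells of 18 M (55.7 CPM) and none in the pFBs of any other library, at least 18.96-fold higher than a floor of 3 UMIs in NB. The median pFB held 11071 UMIs in 18 M and 7546 in NB. Of 18 marker genes of other cell types followed in the pFBs, the mesothelial Msln (104.5 CPM in 18 M, 4.90 in NB) and Upk3b (71.1 and 4.90) and the globin Hbb-bs (3346 and 557) were higher in 18 M. The smooth muscle genes Acta2 (95.5 and 218) and Myh11 (25.8 and 84.3) and the platelet gene Pf4 (2.79 and 191) were lower, and Cpa3, Mcpt8, Ccr3 and Siglech of mast cells, basophils, eosinophils and plasmacytoid dendritic cells had no UMI in either library. Their part in the pFB results was not tested.

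Imprinted growth genes were also higher in pFBs. All 12 listed were measured, 10 were at least 2-fold higher in 18 M, where 6.63% of all genes were, and none lower, with a median log2 ratio of 2.44 (2.04 to 2.91). The medians were 1.06 against 2 M and 2.32 against 10 M. H19, the non-coding RNA beside Igf2 (chr7:142575529-142578143, minus strand, GRCm38), had 855 UMIs in 25 cells of 18 M, 596 CPM (556 to 637), and none in NB, at least 203-fold higher. One cell held 219 of those UMIs. H19 was at 0 in 2 M and 0.315 CPM in 10 M. Igf2 itself, the fetal insulin-like growth factor (chr7:142650766-142666816, minus strand), was at 223 CPM (199 to 249) and 21.6 (13.5 to 32.6), a ratio of 10.3 (6.71 to 16.7), with 12.5 in 2 M and 17.3 in 10 M. So both genes of the pair were high in 18 M and low in the other 3 libraries. Dlk1 and Meg3 lie together on chromosome 12. Dlk1, a membrane protein that restrains fat cell formation, was at 109 CPM in 18 M and had no UMI in NB, at least 37.2-fold higher. The non-coding RNA Meg3 was at 2405 CPM and 586 CPM, 4.10-fold higher, with 1342 in 2 M and 759 in 10 M. Zim1 was at least 21.6-fold higher, at 63.4 CPM. Peg3 was 5.84-fold higher and Plagl1, a zinc finger factor that acts on this gene network, 5.13-fold. Cdkn1c, an inhibitor of division, was at 147 and 99.0 CPM and did not pass 2-fold, nor did Ndn (log2 ratio 0.94). Outside the lists, Nrk, a kinase gene, was at 66.9 CPM against 0, at least 22.8-fold higher.

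The adult fibroblast genes went the other way. None of the 13 measured was higher in 18 M and 11 were at least 2-fold lower, where 7.19% of all measured genes were. The summed level was 6748 CPM in 18 M and 26820 in NB. Inmt, an amine methyltransferase abundant in adult lung fibroblasts, was at 55.7 CPM (44.2 to 69.4) and 2752 (2651 to 2856), 49.4-fold (39.5 to 62.5) lower. In 2 M and 10 M it was at 1203 and 1150 CPM. Hsd11b1, which regenerates active glucocorticoid, was at 5.57 CPM in 18 M, 257 in NB, 135 in 2 M and 193 in 10 M, 46.1-fold (23.0 to 108) lower in 18 M than in NB. Several members belong to the complement system. C7 was 35.0-fold lower, and C3 was 5.62-fold lower at 432 and 2428 CPM. Serping1, the C1 inhibitor, was at 1214 and 2021 CPM and did not pass 2-fold. Gsn, gelsolin, was at 4103 CPM in 18 M and between 14645 and 19444 CPM in the other libraries. The 18 M library was thus the lowest of 4 for each of Inmt, Hsd11b1, C3, C7, Gsn and Serping1. Slpi, a protease inhibitor of airway epithelium, was 88.3-fold lower in pFBs, with 1 NB cell holding 131 of its 251 UMIs. Jchain, the joining chain of secreted antibody, was at 1800 CPM in the pFBs of NB, and 1 cell held 1513 of those 1837 UMIs.

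**Figure D3:**
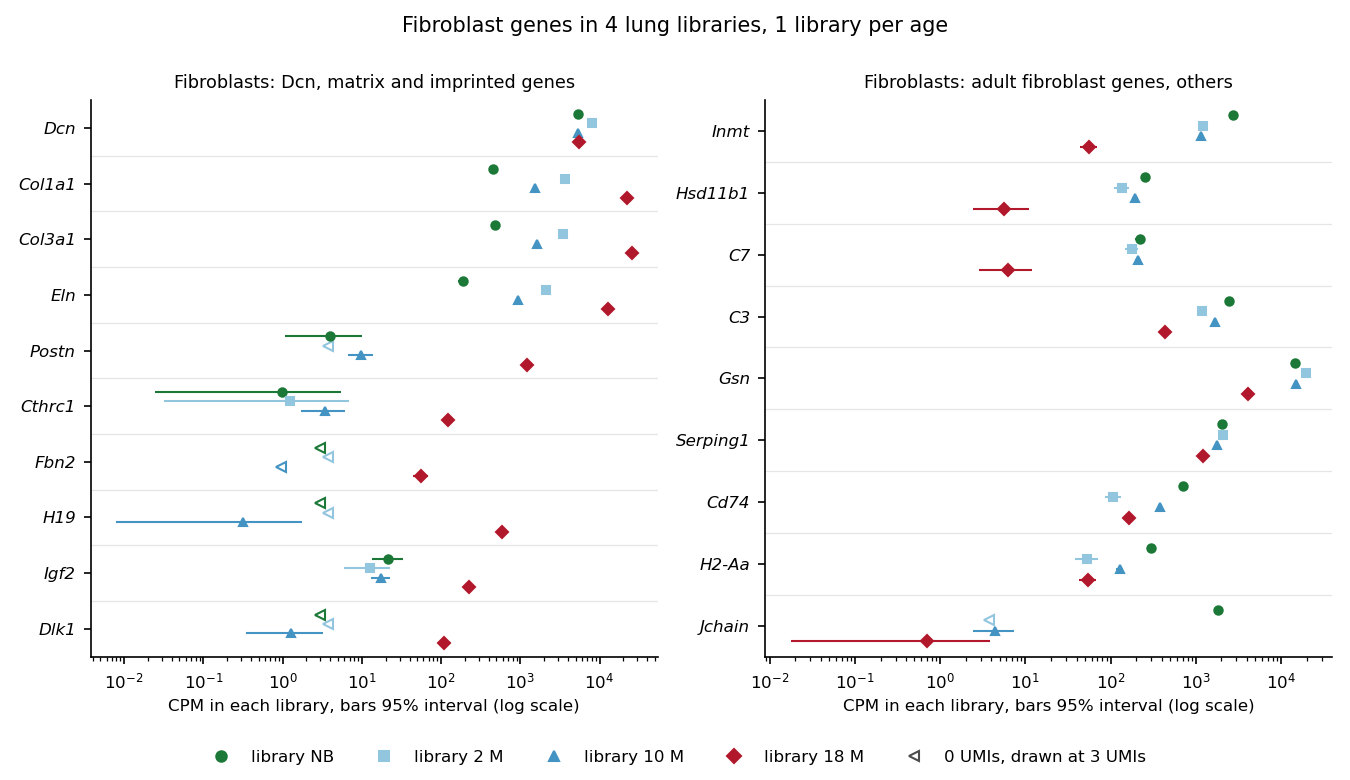
CPM (log scale) of 19 genes in the fibroblasts of the 4 libraries, with exact 95% Poisson intervals; open triangles stand at 3 UMIs where a library had none. Dcn lies between 5371 and 7976 CPM in the 4 libraries, Col1a1, Col3a1, Eln, Postn, H19 and Igf2 are highest in 18 M, and Inmt, Hsd11b1, C7 and C3 are lowest there.

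B cells of 18 M held the transcripts of antibody gene assembly. Of the 10 precursor genes measured, of 14 listed, 9 were at least 2-fold higher and none lower, where 7.65% of 10335 genes were higher. Rag1, which cuts DNA at antibody gene segments (chr2:101638282-101649501, minus strand, GRCm38), had 478 UMIs in 219 B cells of 18 M, 41.0 CPM (37.4 to 44.9), and none in NB, at least 162-fold higher. It was at 0.358 CPM in 2 M and 0.829 in 10 M. Vpreb1 and Igll1, side by side on chromosome 16, encode the surrogate light chain that a precursor B cell carries before it has a light chain of its own. Vpreb1 had 200 UMIs and Igll1 161 in 18 M, and neither had a UMI in NB, at least 67.8-fold and 54.6-fold higher. Rag2, the partner of Rag1, had 26 UMIs and Dntt, which adds bases at the joints, 49 in 18 M, and none in NB. So the machinery of antibody gene assembly was detected in the B cells of 18 M and not in those of NB.

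In all, 243 of 2686 B cells of 18 M (9.05%, 7.99 to 10.2) held a UMI of Rag1, Vpreb1 or Igll1. The count was 0 of 2571 in NB, which allows a share of up to 0.117%, 2 of 2720 in 2 M and 12 of 3820 in 10 M. Rag1 alone was seen in 8.15% of the B cells and 1.01% of the T cells of 18 M, whose median depths were 3270 and 5493 UMIs, and Vpreb1 was at most 0.697 CPM in the other 8 classes of 18 M. The cells divided by what they held. Only 32 of the 243 held at least 2 of the 3 genes, and they carried 155 of the 161 Igll1 UMIs and 190 of the 200 Vpreb1 UMIs, but 80 of the 478 Rag1 UMIs. Most Rag1 therefore lay in B cells without a surrogate light chain UMI. Factors and receptors of immature B cells were raised with it. Cd93, a receptor of immature B cells, was at 84.7 and 7.59 CPM, 11.2-fold (8.99 to 14.0) higher. Sox4 was at 256 and 17.5 CPM (14.6-fold) and Myb at 89.3 and 6.33 CPM (14.1-fold), and both encode transcription factors that early B cells need. In 2 M and 10 M, Sox4 was at 65.3 and 40.9 CPM and Myb at 19.8 and 10.9, between NB and 18 M. Vpreb3 was 4.13-fold higher, and Cd24a, at 351 and 200 CPM, did not pass 2-fold.

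The mature B cell genes differed little as a group. None of the 10 measured passed 2-fold, and their median log2 ratio was 0.01 (-0.11 to 0.13), or -0.16 relative to the median of all genes, from -0.99 for Cr2, the complement receptor, to 0.74 for Fcer2a, the low-affinity IgE receptor. Ccr7, which guides cells into lymph nodes, was at 881 and 790 CPM.

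Transcripts of antibody secretion were lower in 18 M. Jchain was at 31.7 CPM in the B cells of 18 M and 4319 in NB, 136-fold (123 to 151) lower, with 0.806 CPM in 2 M and 118 in 10 M. In NB, 53 of 2571 B cells (2.06%) held at least 50 Jchain UMIs each and carried 98.5% of all Jchain UMIs of the class; 18 M had 1 such cell. Tnfrsf17, the survival receptor of plasma cells, was at 0.0858 and 16.3 CPM. Xbp1, a factor of the secretory programme, was at 62.2 and 135 CPM, and without the Jchain-rich cells, a choice made after seeing the data, its log2 ratio was 0.17 in place of -1.12. Mzb1, a chaperone of antibody assembly, was at 267 and 487 CPM, and Prg2, a granule protein gene, was at 0 and 39.7 CPM. Cells rich in Jchain thus lay almost wholly in the library labelled NB. Of the 6 age-associated B cell genes measured, 1 was at least 2-fold higher (Sox5, log2 ratio 1.03) and 2 lower, where 3.86% of all genes were lower; Cxcr3 was at 1.29 and 9.95 CPM. Their median was -0.42 against NB, 2.60 against 2 M and 1.26 against 10 M.

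MHC class II was lower in 18 M in every class in which at least 3 of its genes were measured, with medians below 0 in 8 of 8 classes. The list held the chains H2-Aa, H2-Ab1 and H2-Eb1, the invariant chain Cd74 and the peptide loaders H2-DMa, H2-DMb1 and H2-DMb2. It also held the related H2-Oa and H2-Ob, and the activator of these genes, Ciita. These genes are switched on together through short promoter boxes, and one of them, the Y box, holds the letters CTGATTGG in 2 of the chains that differed most in B cells. To show it, 150 bases before the start of each are printed (RefSeq, GRCm38.p6), with those letters in capitals, H2-Aa from chr17:34287824-34287973 on the minus strand and H2-Eb1 from chr17:34305717-34305866 on the plus strand.
H2-Aa: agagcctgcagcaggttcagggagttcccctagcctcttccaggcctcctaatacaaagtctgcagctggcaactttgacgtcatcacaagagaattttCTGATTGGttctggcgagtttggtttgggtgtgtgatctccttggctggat
H2-Eb1: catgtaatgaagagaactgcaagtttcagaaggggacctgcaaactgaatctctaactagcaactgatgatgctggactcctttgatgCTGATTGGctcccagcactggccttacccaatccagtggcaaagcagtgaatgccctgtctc
The letters begin 51 bases before the start of H2-Aa and 62 before that of H2-Eb1. Searched on both strands in the 250 bases before the start, CTGATTGG was found for 3 of the 7 members with an entry (H2-Oa is the third), and for 4.43% of all 27025 genes in the table. A match is a description of the sequence and not of binding.

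In alveolar macrophages, 7 of 9 measured MHC class II genes were at least 2-fold lower, where 3.06% of all genes were. Cd74 was at 392 CPM (378 to 407) in 18 M and 4208 (4127 to 4290) in NB, 10.7-fold lower, H2-Aa at 149 and 1526 CPM, 10.2-fold lower, and H2-DMb1 at 27.5 and 378 CPM, 13.8-fold lower. Cd74 was at 458 CPM in 2 M and 3341 in 10 M, and H2-Aa at 118 and 987. So the macrophages of 18 M resembled those of 2 M in level, and those of NB were nearer to 10 M. With each cell reduced to 1000 UMIs, H2-Aa was seen in 7.22% of the 18 M macrophages and 69.4% of those of NB, and in T cells, which make little of it, in 2.11% and 2.65%. In Csf1r myeloid cells all 6 measured genes were lower, where 1.88% of all genes were, with H2-Eb1 at 329 CPM in 18 M, 2875 in NB, 2647 in 2 M and 1797 in 10 M, 8.74-fold lower. In B cells 8 of 10 were lower, where 3.86% of all genes were. H2-Eb1 was at 857 CPM in 18 M and 3291 in NB, 3.84-fold lower, and at 2872 and 3138 CPM in 2 M and 10 M. H2-Aa was 3.55-fold lower, H2-Ab1 3.04-fold and Cd74 2.23-fold. For B cells and Csf1r myeloid cells, then, 18 M lay below all 3 other libraries. Alveolar type II cells, which carry MHC class II without being immune cells, differed less, with H2-Eb1 at 193 and 458 CPM and a list median of -0.52, against 0.25 for all genes of the class. In T cells none of 7 passed 2-fold. Neutrophils (median -2.68), pFBs (-2.47) and endothelial cells (-1.71) had 4 measured genes each, all at least 2-fold lower, where 2%, 7.19% and 5.04% of all genes of these classes were. The B cells of the same libraries held 2.23 to 3.84 times less of the 4 most abundant of these genes, and the part of free RNA from B cells in the other classes was not tested.

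**Figure D4:**
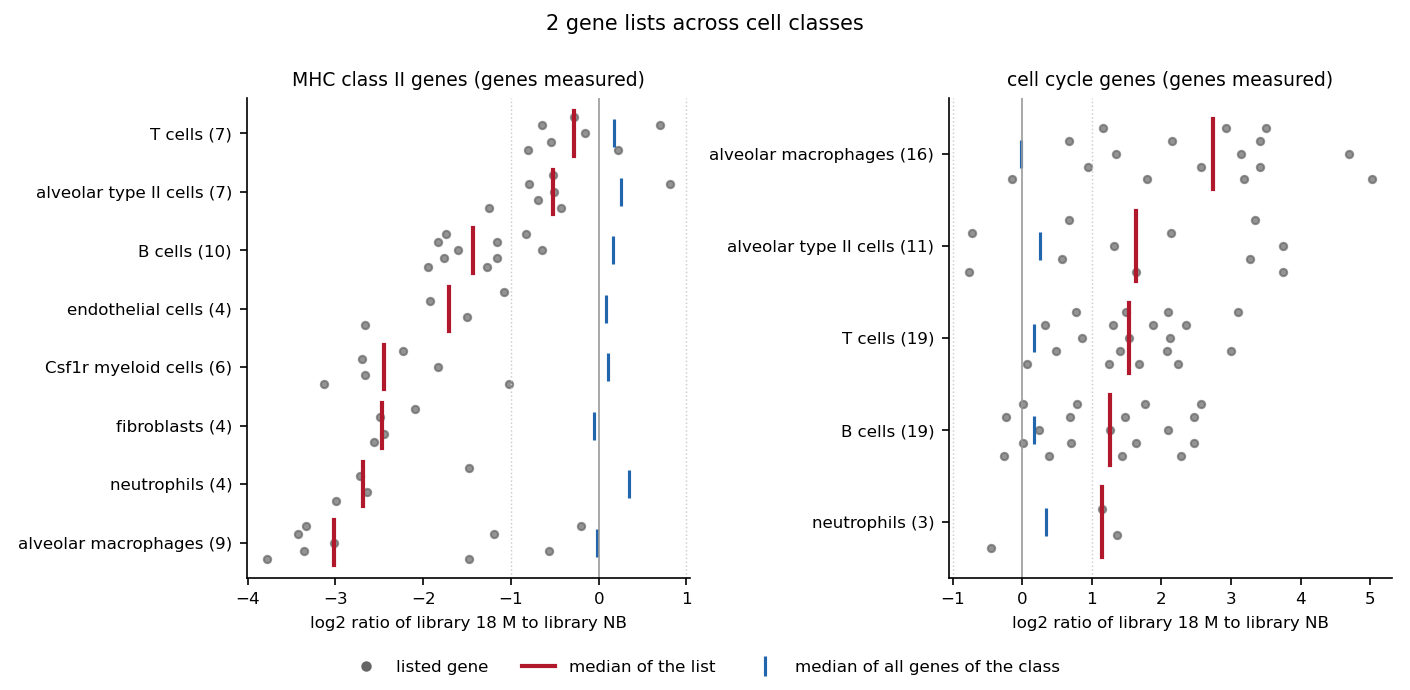
Log2 ratio of library 18 M to library NB for each measured MHC class II gene (left) and cell cycle gene (right) by class, with the number measured in brackets, the list's median (long bar) and the median of all measured genes of the class (short bar). All 8 MHC class II medians lie below 0, down to -3.02 in alveolar macrophages, and all 5 cell cycle medians above 0, up to 2.75 in the same cells, of which that of neutrophils turned to -0.020 without the 5% deepest cells.

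T cells of 18 M held less effector RNA. Of the 20 effector and memory genes, all measured, 11 were at least 2-fold lower and none higher, where 3.59% of 9439 genes were lower; the median log2 ratio was -1.05 (-1.18 to -0.91). It was 0.35 against 2 M and -1.15 against 10 M. Gzmk, the granzyme of memory CD8 T cells (chr13:113171608-113225908, minus strand, GRCm38), had 6 UMIs in 18 M and 705 in NB, 0.954 CPM (0.350 to 2.08) and 84.8 CPM (78.6 to 91.3), 88.8-fold (40.6 to 243) lower. It was at 1.68 CPM in 2 M and 48.8 in 10 M. Ccl5, a chemokine stored by memory T cells, was at 494 CPM and 5126 CPM, 10.4-fold lower, with 778 in 2 M and 5648 in 10 M. Ifng, the cytokine of type 1 immunity, was at 13.2 CPM in 18 M, 104 in NB, 8.07 in 2 M and 52.9 in 10 M. Tbx21, the factor that switches Ifng on, was 6.95-fold lower at 4.14 and 28.7 CPM. For these 4 genes 18 M and 2 M were low and NB and 10 M high. Lag3, Prf1 and Cxcr3 had log2 ratios of -2.91, -2.57 and -2.32, and Klrg1, a receptor of late effector cells, 0.30.

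Naive T cell genes leaned the other way. Among 10 measured, 3 passed 2-fold upwards and none downwards, where 6.24% of the class did upwards, and the median was 0.71 (0.57 to 0.97). Satb1, a chromatin organiser of young T cells, was at 1786 CPM in 18 M, 714 in NB, 1236 in 2 M and 709 in 10 M. Ccr7 was at 580 and 300 CPM and did not pass 2-fold, and Il7r and Klf2 were below 0, at -0.55 and -0.50. Of 5 thymocyte genes measured, 4 were at least 2-fold higher, with a median of 2.15. Sox4 was at 192 CPM (181 to 203) in 18 M and 15.3 (12.7 to 18.2) in NB, 12.5-fold (10.4 to 15.2) higher, and Cd24a, the heat-stable antigen of immature lymphocytes, at 80.2 and 8.78 CPM, 9.13-fold higher. Ccr9, a homing receptor kept by recent thymic emigrants, was 4.48-fold higher. Ikzf2, which encodes Helios, was at 663 and 215 CPM, and Themis, needed for selection in the thymus, at 29.4 and 42.3. Rag1 had 40 UMIs in 10 T cells of 18 M and none in NB, short of the 50 UMIs that counted as measured.

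Cell cycle genes had medians above 0 in the 5 classes in which at least 3 were measured. In endothelial cells, with 2 measured, the median was -0.75, and the list summed to 330 CPM in 18 M and 828 in NB. In natural killer cells the 1 gene measured was at -0.24, with list sums of 1181 and 683 CPM. The median of neutrophils, which rests on 3 genes, turned from 1.14 to -0.020 without the 5% deepest cells. In T cells 14 of 19 were at least 2-fold higher and none lower, against 6.24% of the whole class that passed upwards, and their median was 1.53 (1.20 to 2.24). Mki67, the proliferation antigen Ki-67, was at 89.5 CPM in 18 M, 11.2 in NB, 9.75 in 2 M and 10.8 in 10 M, 8.01-fold (6.42 to 10.1) higher than in NB, and Top2a, which untangles DNA, was 4.25-fold higher. In alveolar macrophages 13 of 16 were at least 2-fold higher, where 4.8% of all genes were. The class held 7176534 UMIs in 18 M and 2450943 in NB. Listed genes could thus be measured through 18 M alone, as were Mki67 (421 and 13 UMIs) and Top2a (347 and 13). There, 18 M held 58.7 CPM of Mki67, NB 5.30, 2 M 17.2 and 10 M 8.01. Stmn1, a tubulin regulator of dividing cells, was at 153 and 16.7 CPM, and Ube2c, an enzyme of mitotic exit, at 26.3 and 0.816 CPM. Pcna, the clamp of DNA replication, was not raised there, with a log2 ratio of -0.14. In B cells 10 of 19 were higher, where 7.65% of all genes were, with a median of 1.27 (0.58 to 1.64). In alveolar type II cells 7 of 11 were higher, where 14.5% of all genes were, but 4 of the 11 had no UMI in the 35 cells of NB. Those 4 are among the 7, and their place there depends on the 0.5 UMIs added. The class held 6086915 UMIs in 18 M and 538986 in NB, so its genes were measured largely through 18 M. The median of the list was 1.63, or 0.75 with those 4 genes at the floor of 3 UMIs. In pFBs 2 genes were measured, Pcna (-0.30) and Stmn1 (0.61).

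The share of cells with at least 5 cell cycle UMIs was taken after each cell was reduced to 1000 UMIs. In T cells it was 4.32% (43 of 995, 3.14 to 5.78) in 18 M and 0.589% (8 of 1358) in NB, with 0.353% in 2 M and 0.388% in 10 M. In B cells it was 1.31% (35 of 2670) and 0.117% (3 of 2554). Among alveolar macrophages it was 2.11% (12 of 568, 1.10 to 3.66) and 0 of 183, which allows up to 1.64% by the floor of 3 cells and 2.00% by the exact interval, so the intervals overlap. The 4 of 512 alveolar type II cells of 18 M cannot be set apart from 0 of 35 in NB, which allows up to 8.57%. Shallower cells left out numbered 0 and 1 of the T cells, 16 and 17 of the B cells, 44 and 1 of the alveolar macrophages and 16 and 0 of the alveolar type II cells. At full depth the shares were 34.1% and 26.8% in T cells, 11.4% and 9.30% in B cells and 25.0% and 12.5% in alveolar macrophages.

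Natural killer cells were few, 18 and 42, and 868 genes were measured in them. Of 8 mature natural killer genes measured, 6 were at least 2-fold lower in 18 M, where 7.37% of all genes were, with a median of -2.34. The class held 87224 UMIs in 18 M and 202196 in NB. Listed genes could thus be measured through NB alone, as was the granzyme gene Gzmb (6 and 143 UMIs). Klra8, a receptor gene of the Ly49 family, was at 45.9 CPM (12.5 to 117) and 544 (447 to 656), 11.9-fold (4.50 to 44.3) lower, and the related Klra4 was at 344 and 321 CPM; Ly49 genes resemble each other and reads can be split between them. Gzmb, a granzyme of killing, was at 68.8 CPM in 18 M and 707, 686 and 731 CPM in NB, 2 M and 10 M. Ccl5 was 4.55-fold lower and Gzma 2.53-fold. All 3 were lower in 18 M than in each other library. Ikzf2 was 8.96-fold higher, at 665 and 74.2 CPM. Of 3 immature genes measured, 1 was at least 2-fold higher, where 5.88% of all genes were.

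In neutrophils, 5 of 9 granule genes were at least 2-fold higher in 18 M and 2 lower, where 11.7% and 2% of 3904 genes were; with the median of all genes set to 0, the 457 higher and 78 lower genes of the class became 184 and 182. Camp and Ngp encode granule proteins made in the bone marrow before release. Camp was at 1406 CPM in 18 M, 35.6 in NB, 130 in 2 M and 2.59 in 10 M, from 27 and 5 cells in 18 M and NB. Ngp was at 1921 and 102 CPM, 18.8-fold higher, and Ltf, lactoferrin, 7.08-fold. Chil3 was 29.6-fold higher, but 1 cell held 564 of its 836 UMIs. Lcn2 was 2.23-fold lower, at 2563 and 5723 CPM, and Ly6g had a log2 ratio of -1.52. Thus the list split, with Camp, Ngp and Ltf higher in 18 M and Lcn2 and Ly6g lower. A group of stefin genes, inhibitors of cysteine proteases, differed most. Stfa1 was at 7234 CPM in 18 M and 81.4 in NB, 88.9-fold (75.8 to 105) higher, with 8.30 in 2 M and 56.2 in 10 M, and its neighbours in sequence BC100530 and 2010005H15Rik were 130-fold and 459-fold higher; near-identical copies make their split uncertain. At 1000 UMIs a cell, Stfa1 was seen in 84.5% of the neutrophils of 18 M and 3.97% of those of NB, and it was at most 128 CPM in any other class of 18 M. Of 14 activation genes 1 was higher (Ptgs2, the prostaglandin synthase, 2.31-fold) and 1 lower (Cxcl2, 2.14-fold). Wfdc17 was 9.38-fold lower, at 694 and 6513 CPM.

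Identity genes of alveolar macrophages mostly stayed within 2-fold. The 17 measured had a median of -0.32 (-0.53 to -0.19), with 2 at least 2-fold higher and 1 lower, where 4.8% and 3.06% of all genes were, and 13 of the 17 lay below 0. Car4, a carbonic anhydrase, was at 863 and 594 CPM. Mertk, which takes up dead cells, was the lower gene (log2 ratio -1.40), and Ear6, a ribonuclease gene, was one of the higher ones (2.27). Fbp1, a gluconeogenic enzyme, was the other, with 512 UMIs in 52 cells of 18 M (71.3 CPM) and none in NB, 2 M or 10 M, at least 58.3-fold higher than in NB. Cdkn2a, the cell cycle inhibitor locus that rises in senescent cells, was at 0.697 CPM (0.226 to 1.63) in 18 M, 22.4 (16.9 to 29.2) in NB, 0 in 2 M and 4.97 in 10 M, 32.2-fold (12.998 to 103) lower in 18 M than in NB. Rasef showed the same order, at 0.279, 27.7, 0 and 26.5 CPM. In Csf1r myeloid cells, which mix monocytes and tissue macrophages, Mrc1, the mannose receptor, was 4.70-fold higher and Pf4 3.95-fold, while the complement genes C1qa and C1qb were at 487 and 490 CPM in 18 M and 455 and 468 in NB. Of 10 monocyte genes 3 were higher and 1 lower, where 5.46% and 1.88% of all genes were. Chil3 is among the 3, but its 4.93-fold higher level came from 1 cell with 734 of 791 UMIs. Without that cell its log2 ratio turned to -1.05.

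Endothelial cells numbered 32 and 55. Of 11 mature endothelial genes, 3 were at least 2-fold lower, where 5.04% of all genes were, and 1 higher. Ly6a, the stem cell antigen Sca-1, was at 285 CPM in 18 M and 1600, 1658 and 1472 CPM in NB, 2 M and 10 M, 5.62-fold lower than in NB, and Ly6c1 had a log2 ratio of -2.31. Ednrb, an endothelin receptor, was the higher gene (1.53). Of 8 angiogenic genes, 2 were higher, where 7.25% of all genes were, Cd34 (455 and 164 CPM, 2.78-fold) and the growth factor Pgf (log2 ratio 1.63), of which 1 cell held 35 of 51 UMIs. Vwf, von Willebrand factor, was at 1048 and 925 CPM. The class I genes H2-Q6 and H2-Q7, close copies of each other, were lower, H2-Q7 at 27.8 and 541 CPM.

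Alveolar type II cells of 18 M were surfactant producers with marked differences in part of the list. Of the 14 surfactant and lipid genes, 4 were at least 2-fold lower, where 2.39% of 8573 genes were, and 1 higher, with a median of -0.21 (-0.32 to -0.09); with the median of all genes set to 0 the 1244 higher and 205 lower genes of the class became 817 and 416. Sftpc, the most abundant transcript of these cells, was at 138227 CPM in 18 M, 174489 in NB, 170127 in 2 M and 182921 in 10 M. Sftpa1, a surfactant collectin, was at 8218 and 19340 CPM, 2.35-fold lower, with 18402 and 24404 in 2 M and 10 M. Lyz2 was at 8316 and 28487 CPM, 3.43-fold lower. Lyz1, its neighbour on chromosome 10, was at 1532 CPM in 18 M, 14.8 in NB, 2192 in 2 M and 1577 in 10 M, 103-fold (52.4 to 239) higher than in NB. The lysozyme copies are nearly identical, so how reads were divided between them is uncertain. For Lyz1, unlike Lyz2, it was NB that stood apart from the other 3 libraries.

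Progenitor genes were detected in the same cells. Sox9, a factor of the growing tips of the airway tree, had 798 UMIs in 245 of 528 cells of 18 M, 131 CPM (122 to 141), and none in NB, at least 23.6-fold higher, with 5.15 CPM in 2 M and 0 in 10 M. Sox4 was 2.25-fold higher, at 408 and 182 CPM, and Krt18, a keratin of simple epithelium, 2.56-fold lower, at 302 and 774 CPM. Of 8 progenitor genes measured, 4 were higher and 1 lower, where 14.5% and 2.39% of all genes were. Meg3 had 4532 UMIs in 405 cells of 18 M, 745 CPM, and none in NB, at least 134-fold higher, with 6.87 CPM in 2 M and 8.47 in 10 M. Scgb1a1, the secretoglobin of club cells, was at 209 and 16000 CPM, where 1 NB cell held 7422 of 8624 UMIs.

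**Figure D5:**
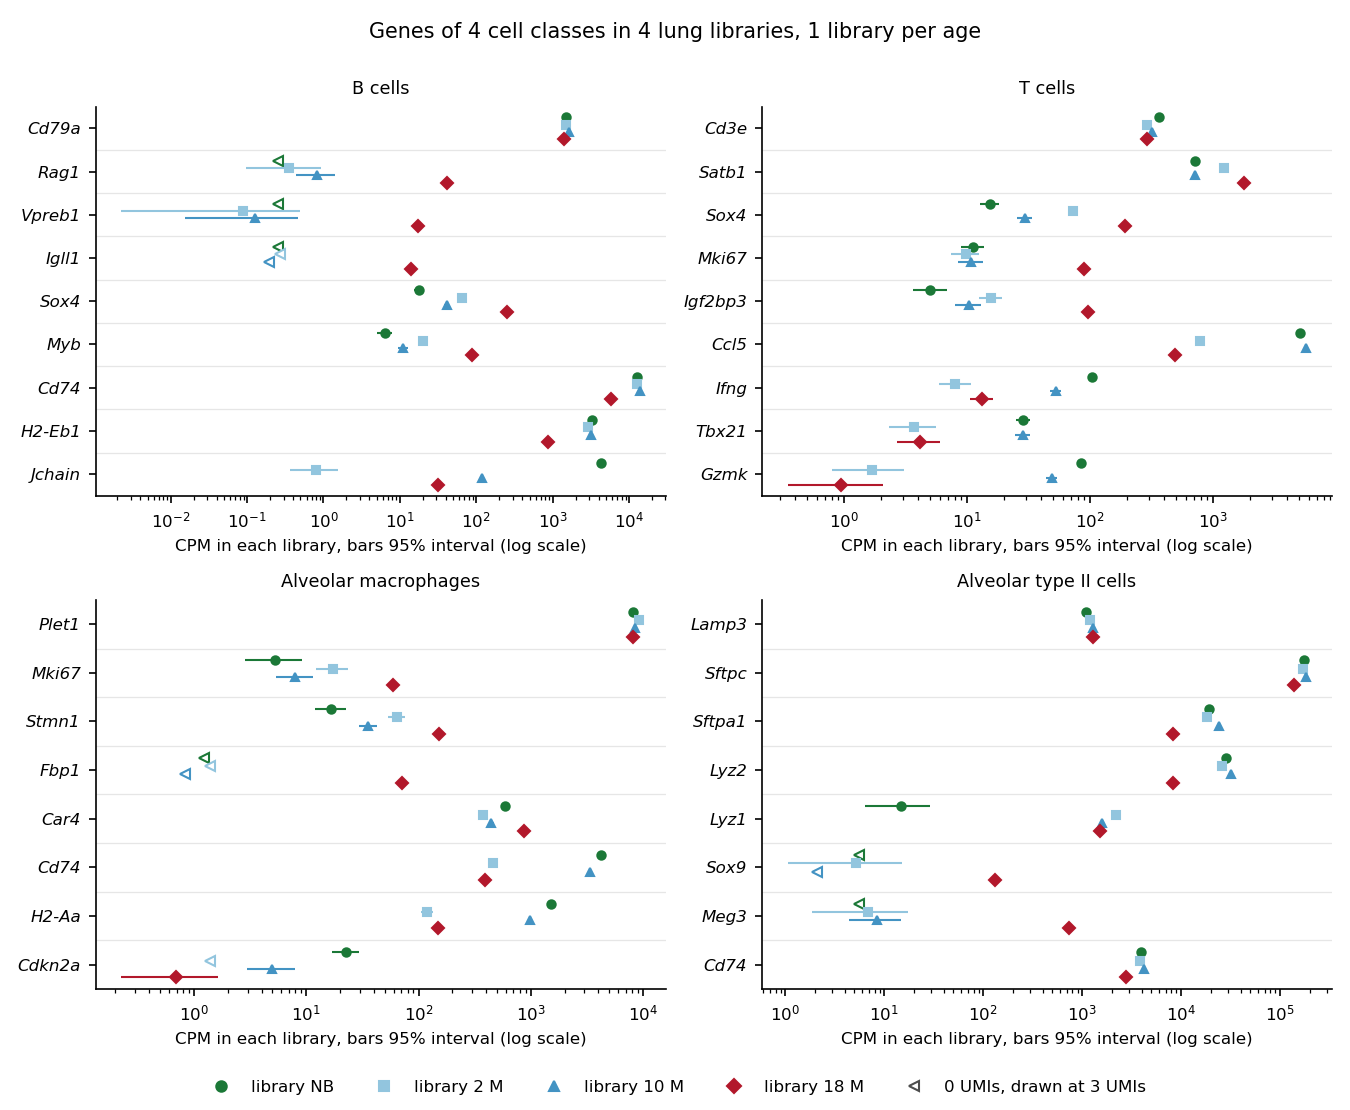
CPM (log scale) of genes of B cells, T cells, alveolar macrophages and alveolar type II cells in the 4 libraries, with exact 95% Poisson intervals; open triangles stand at 3 UMIs where a library had none. Rag1, Vpreb1, Igll1, Sox9 and Meg3 separate 18 M from the other libraries, whereas for Ccl5, Ifng and Gzmk in T cells and Cd74 in alveolar macrophages 18 M lies with 2 M and away from NB and 10 M.

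Some genes differed in every class in which they were measured. A class counted only with at least 50 UMIs of the gene over both libraries. That limit could be passed through the library in which the gene was high. Classes low in both libraries could not enter, so these counts of classes were largely set by the limit. Igf2bp3, an RNA-binding protein of fetal tissue that steadies Igf2 mRNA, was at least 2-fold higher in 3 of 3 classes: T cells (95.7 and 5.05 CPM, 18.96-fold, 13.9 to 26.6), B cells (66.0 and 11.3 CPM, 5.84-fold) and alveolar macrophages (31.2 and 1.22 CPM, 25.5-fold, 8.61 to 125). In 2 M and 10 M it was at 15.6 and 10.3 CPM in T cells and 27.9 and 16.5 CPM in B cells, between the libraries compared. Meg3 was higher in 4 of 4 classes. In alveolar macrophages, Igf2bp3 had 224 UMIs in 18 M and 3 in NB, and Meg3 had 99 and 0. For the interferon-stimulated genes, of 6 classes with at least 3 measured, B cells had a median above 0 (0.38). The other 5 were below, from -0.12 in T cells to -0.70 in neutrophils. With 2 genes measured in each, pFBs (-2.04) and endothelial cells (-1.66) were below 0 as well.

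Other genes differed in the same direction across classes, immune and structural, and their counts of classes carry the same limit. Retnla had 4 UMIs over all classes of NB, and Jchain had 379 over all classes of 18 M. Eln was at least 2-fold higher in 18 M in 8 of 8 classes, at 28.1 to 12813 CPM over the 9 classes of 18 M and 0 to 187 in NB, and in alveolar macrophages 1 cell held 1566 of its 2138 UMIs. Retnla, at 3692 CPM in the alveolar type II cells of 18 M, was higher in 5 of 5 classes and at most 1.86 CPM in any class of NB. Jchain was lower in 6 of 6 classes. It was found in all 9 classes of NB, from 16.7 to 4319 CPM, and at most 31.7 CPM in 18 M. The part of free RNA, of droplets with more than 1 cell and of true expression in these values was not tested. Col1a1 was seen in 8 of the 9 classes of 18 M and 5 of NB, at up to 38.1 CPM outside the pFBs of 18 M against 22482 within them.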

How the data were processed

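The authors digested whole lungs, made 10x 3′ v2 libraries and deposited, per the labels, raw UMI counts per gene and cell from Cell Ranger 3.0.2 (mm10; Seurat 2.0 is also listed in the submitters' processing notes). The file headers name another software version. Each count is a whole number, not normalized, for 27998 genes; 56 symbols on several rows were not used. The 4 libraries held 33087004 to 64863474 UMIs over all barcodes, 1 library per age.

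The study's stated cell limits were applied. They left more cells per library than the study states. No doublet caller was run beyond these limits, and cells whose highest marker was tied were left unassigned. UMIs were summed by class and library and scaled to CPM of the class. Intervals are exact (Poisson for CPM, conditional binomial for ratios, Clopper-Pearson for shares; 95%) and cover counting error only. Log2 ratios used 0.5 added UMIs; a gene at 0 UMIs was set at a floor of 3 for bounds. Genes with at least 50 UMIs over both libraries counted as measured. Of 201 identifiers, 200 matched the GRCm38 annotation for coordinates.

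Named genes were, per class, the 5 highest and 5 lowest ratios seen in at least 10 cells, without markers, Xist, Y-linked genes, globins and antibody segments, plus up to 5 members of each list by level. Others were chosen after their values were seen: Igf2, Cthrc1, Fbn2, C7, Ifng, Tbx21, Cd93, H2-DMb1, Ube2c, Cdkn2a, Rag2, Dntt, Igll1, Ltf, Mki67, Rag1 in T cells, and members given by log2 ratio alone. The members and the 27 lists were chosen with earlier results of these data known. Several antibody heavy chain genes on the lists are not analysed here, and 1 listed gene is not reported here by name. The counting and interval code was tested on simulated data. The tools were matplotlib 3.10.9, pandas 2.3.3, scipy 1.17.1, numpy 2.4.6 and Python 3.11.15. There were 16 alternatives planned and 2 added (without the top cell of each gene, and without B cells of at least 50 Jchain UMIs).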

Additional observations from a re-analysis of the deposited data

Results flagged for a closer look

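Signal outside the gene comparison was seen for Xist, which was not a subject of any cell class comparison. Over all cells of the library labelled 18 M, whose mice are labelled male, Xist was at 577.7 CPM, against 0.176 CPM in NB. In that library 31.97% of the cells held Xist and no UMI of Ddx3y, Eif2s3y, Kdm5d or Uty, the 4 Y-linked genes counted. The share ran from 6.77% of neutrophils to 46.9% of endothelial cells, and cells with Y-linked UMIs alone were present in each of the 9 classes.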

How the results depend on the processing

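No paired analysis was possible because each group has 1 library. The 17 list medians named in the design that were over 0.1 from 0 gave 275 values under the alternatives, of which 272 kept their sign; the 3 that did not belong to the cell cycle genes of pFBs, which rest on 2 genes. The mature B cell median and that of neutrophil cell cycle genes, outside those 17, changed sign as given below. Cell number limits natural killer cells (18 and 42), endothelial cells (32 and 55), Csf1r myeloid cells (100 and 55) and type II cells of NB (35). The cause of each shift below was not tested, except that a filter changes how many genes are counted. The imprinted growth genes of endothelial cells gave no value, since none was measured. Counts are of genes at least 2-fold higher and lower, with the values used in the report in brackets.

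With at least 20 UMIs a gene, these were 933 and 550 in T cells (589, 339), 617 lower in B cells (399), 197 and 202 in natural killer cells (51, 64), 968 and 161 in neutrophils (457, 78), 861 and 402 in alveolar macrophages (407, 259), 462 and 227 in Csf1r myeloid cells (189, 65), 669 and 809 in pFBs (379, 411), 519 and 293 in endothelial cells (177, 123) and 1902 and 425 in type II cells (1244, 205), and the granule gene median was 1.28 (1.89). In the same order, with B cells complete (791, 399), at least 200 UMIs gave 230 and 145, 448 and 196, 4 and 13, 111 and 36, 98 and 114, 48 and 15, 127 and 132, 23 and 44, and 405 and 46. Without a filter they were 2755 and 2171, 3097 and 2188, 2370 and 1565, 3991 and 778, 2247 and 1331, 1807 and 1639, 2591 and 2804, 2781 and 2410, and 2508 and 3432. Centring on the median gene gave 184 and 182 in neutrophils and 817 and 416 in type II cells.

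MHC class II in alveolar macrophages (-3.02) stayed between -1.88 with the 9 markers alone, where 406 genes of that class were lower, and -3.56 in cells with Y-linked UMIs and no Xist. It was -3.35 at 200 UMIs, -3.34 with at least 2 marker UMIs, -2.77 as a mean over cells, -2.88 without a filter, -2.49 in cells with only 1 marker and -3.35 without the 5% deepest cells. In Csf1r myeloid cells (-2.44) it was -2.68 at 200 UMIs, -2.28 with 2 marker UMIs, -2.80 as a mean over cells, -2.62 without a filter and -2.30 without the deepest cells. In B cells (-1.44) it was -1.37 in the Y-linked cells, -1.60 when centred and -1.50 without Jchain-rich cells.

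In the cells with Y-linked UMIs and no Xist, the effector T cell median was -1.24 (-1.05), imprinted genes of pFBs 2.02 (2.44) and the T cell share ratio 0.641 (0.557), with 26 higher genes in natural killer cells, 205 in alveolar macrophages, 123 in Csf1r myeloid cells, 115 in endothelial cells and 595 higher and 133 lower in type II cells. Centred, naive and effector T cell medians were 0.54 and -1.22, mature B cells -0.16 and surfactant -0.46 (-0.21). With 2 marker UMIs, effector T cells were at -0.71, natural killer counts 6 and 24, and the T cell share ratio 0.436. As a mean over cells, T cell medians were 1.15 for cell cycle (1.53), 1.03 for naive (0.71) and -1.27 for effector genes, and macrophage identity was -0.59 (-0.32). With only 1 marker, macrophage identity was -0.63, adult pFB genes -2.75 (-2.32), and share ratios 0.695 for B cells (0.795), 3.33 for alveolar macrophages (2.53) and 0.571 for pFBs (0.761). Without upper limits on UMIs, genes and mitochondrial UMIs, 1235 genes were higher in alveolar macrophages and 375 in endothelial cells. In the same setting cell cycle of pFBs was 1.16 (0.16) and the type II share ratio was 7.34 (11.5). There, Ccl5 in endothelial cells turned from -3.90 to 0.058. Adding 2 UMIs gave 644 higher genes in type II cells. Without the deepest cells, cell cycle of T cells was 1.13, that of neutrophils turned from 1.14 to -0.020 and Chil3 in Csf1r myeloid cells from 2.30 to -1.33. Of the 2 alternatives chosen after seeing the data, leaving out the top cell turned that Chil3 value to -1.05, and leaving out Jchain-rich cells turned Xbp1 in B cells from -1.12 to 0.17.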
